A study of Mus musculus with 12 samples.

Results

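The genes described here encode the proteins of the cytosolic ribosome, 55 of the 19938 genes that had a probe set of their own on the array. A gene was a member when its symbol in the array annotation was Rpl or Rps followed by a number, with at most 1 further letter of a, l or x, and when a probe set named that gene alone. Pseudogene symbols and the Rps6k kinases were left out. Of the members, 34 belong to the large subunit (Rpl) and 21 to the small subunit (Rps). Where several probe sets named a gene, the brightest one on average was used. Another 16 symbols of the same form, among them Rpl3, Rpl11, Rpl32, Rps16 and Rps24, were found only on probe sets that name several genes and have no value here.

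RNA was taken from pancreatic islets of 129Sv mice that were wild-type (Prlr+/+) or homozygous for a deletion of the prolactin receptor gene (Prlr-/-), either non-pregnant (NP) or pregnant for 9.5 days (P9.5). Each of the 4 groups was measured on 3 Affymetrix MoGene_1.0_ST arrays, 12 in all. The deletion is carried by all cells of the animal, not by islets alone. The pregnant Prlr-/- mice were given a progesterone pellet at the start of pregnancy, so that genotype and pellet cannot be told apart in the pregnant groups. The paper describes the pellet for these mice only. In Prlr-/- islets pregnancy and pellet therefore cannot be told apart either, in what is called below the change in Prlr-/- pregnancy. The same holds for the difference between the genotypes in their response to pregnancy. The labels give no age, and the annotation names no probe set for Prlr, so the deletion was not checked in these values.

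A ribosome is built in the nucleolus from ribosomal RNA and one copy of most of these proteins, and it is exported to the cytosol, where the small subunit reads the mRNA and the large subunit joins the amino acids. Ribosomal protein mRNAs are among the most abundant of a cell and share a short stretch of pyrimidines at their 5′ end, the TOP motif, through which mTOR controls how well they are translated. Beta cells enlarge, divide and make more insulin in pregnancy, and prolactin and placental lactogen act on them through the prolactin receptor. The arrays measured the amount of the mRNAs, not their translation and not the number of ribosomes.

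To show the 5′ ends of members that changed and of members that did not, the bases around the start of transcription were read from the promoters of RefSeq (GRCm38.p6), which hold 44 of the 55 members. Each line gives 40 bases before the start and 20 from the start onwards, 5′ to 3′ on the strand of the gene, with the longest unbroken run of C or T that touches the 10 bases on either side of the start in capitals. Rps6 (chr4:86857348-86857407, minus strand), Rps15a (chr7:118116128-118116187, minus strand) and Rps27l (chr9:66946046-66946105, plus strand) are shown because they were higher at P9.5 in both genotypes. Rpl5 (chr5:107900488-107900547, plus strand) and Rps28 (chr17:33824543-33824602, minus strand) are shown as called genes with short runs by this rule, and Rpl10l (chr12:66284382-66284441, minus strand) because its change differed most between the genotypes. The line of Rpl5 also holds a longer run that ends just before the 10 bases and is therefore not in capitals. Rpl38 (chr11:114668540-114668599, plus strand) and Rpl28 (chr7:4792925-4792984, plus strand) are shown as genes with a long run that passed the test in no comparison.
Rps6: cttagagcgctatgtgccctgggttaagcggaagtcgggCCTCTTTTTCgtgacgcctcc
Rps15a: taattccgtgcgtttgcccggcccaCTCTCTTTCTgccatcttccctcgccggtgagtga
Rps27l: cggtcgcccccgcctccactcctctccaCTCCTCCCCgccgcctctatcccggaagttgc
Rpl5: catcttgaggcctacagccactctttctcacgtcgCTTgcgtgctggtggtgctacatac
Rps28: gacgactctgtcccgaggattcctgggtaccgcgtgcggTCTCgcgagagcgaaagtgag
Rpl10l: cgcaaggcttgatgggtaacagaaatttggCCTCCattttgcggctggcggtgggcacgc
Rpl38: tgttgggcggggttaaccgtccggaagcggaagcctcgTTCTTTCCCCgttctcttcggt
Rpl28: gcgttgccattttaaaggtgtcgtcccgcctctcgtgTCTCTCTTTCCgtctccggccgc

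A run of at least 7 bases was found at 24 of the 53 listed starts of the members (45.3%) and at 6442 of the 32798 starts of all other genes (19.6%). The stricter form, a C as the first transcribed base followed by 4 pyrimidines, was found at 9 of the member starts (17%) and at 2.48% of the starts of other genes. Of the 15 members called in a pregnancy comparison below, 9 have a promoter in the table and 3 of these, Rps6, Rps15a and Rps27l, had a run of at least 7 bases at their first listed start, against 18 of the 35 that were not called. The search covered the coding strand of the gene and says nothing about whether a given mRNA carries the motif, since RefSeq starts can lie some bases away from the start used in islets.

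Ribosomal protein mRNAs gave bright signals in all arrays. The median member had a mean signal above that of 96.6% of all probe sets. Each member was taken at its brightest probe set and the other probe sets were not selected, which favours a high share. The 3 brightest were Rpl10, which joins the large subunit last and lies on the X chromosome, at 11.7 to 12.5 on the log2 scale, Rps6, the small subunit protein that S6 kinase phosphorylates, at 11.1 to 12, and Rpl9 at 10.9 to 11.3. The 3 dimmest were Rpl12 at 5.4 to 6.2, Rpl3l at 4.2 to 4.9 and Rpl39l at 4.2 to 4.8. Rpl3l, a form of Rpl3 known from heart and skeletal muscle, and Rpl39l, a form of Rpl39 known from testis, were as dim as the Y-linked gene Kdm5d (4.1 to 4.6), so their values lie in the range of the background. Signals of different probe sets depend on the probes and do not rank the genes by RNA amount.

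The islet origin of the RNA was checked with markers. The 12 endocrine markers, including Ins2, Iapp, Gcg and Sst, had a mean signal of 11.48 to 11.70 in every array. This mean does not show the single markers, some of which were called in pregnancy, as given below. The 13 measured acinar markers, which are digestive enzymes and factors of the exocrine cells around the islets, had a mean of 10.3 to 10.8 in Prlr+/+ NP, 10.6 to 11.4 in Prlr-/- NP, 9.62 to 10.7 in Prlr+/+ P9.5 and 9.22 to 10.7 in Prlr-/- P9.5 arrays. The X-inactivation RNA Xist was at 3.8 in Prlr+/+ P9.5 replicate 2 and at 10 to 10.7 in the other arrays, while the Y-linked genes Kdm5d and Eif2s3y were dim in all of them. Without that array 8 members were called in Prlr+/+ pregnancy, 7 higher and 1 lower, in place of 11.

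In non-pregnant islets, the loss of the receptor changed no ribosomal protein gene past the test. One linear model with 4 group means was fitted in limma to all 35511 probe sets, and a member was called when its Benjamini-Hochberg adjusted p over all of them was under 0.05, at any fold. In Prlr-/- against Prlr+/+ NP islets 0 of 55 members were called, against 0.101% of all probe sets (0.0929% higher and 0.00845% lower), and 2 members were higher and 2 lower at an unadjusted p under 0.05. The log2 changes ran from -0.43 to 0.53, and all 95% intervals lay between -0.73 and 0.84. Their median was 0.03, beside 0 over all probe sets, with 32 members above and 16 below 0.

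The 4 members at an unadjusted p under 0.05 were the only ones whose groups did not overlap. Rps18, a protein of the head of the small subunit, was at 11, 11.2 and 11.2 in Prlr+/+ and at 10.6, 10.7 and 10.8 in Prlr-/- NP arrays, a log2 change of -0.43 with a standard error of 0.108 and an adjusted p of 0.162 in limma. Rpl29, a small basic protein of the large subunit, was at 8.3, 8.6 and 8.1 in Prlr+/+ and at 8.8, 8.7 and 9.1 in Prlr-/- NP arrays, a log2 change of 0.53 with a standard error of 0.142 and an adjusted p of 0.182 in limma. Rpl14, also of the large subunit, was at 6.6, 6.3 and 6.2 and at 6.7, 6.7 and 6.8, and Rpl10l, a retrogene copy of Rpl10 known from testis, at 6.6, 6.2 and 6.2 and at 6, 6 and 5.8. All Prlr-/- values were higher for Rpl29 and Rpl14 and lower for Rps18 and Rpl10l. Over all probe sets, the Prlr-/- values lay above in 6.47% and below in 5.22%, so 2 and 2 of 55 members were no larger a share. Rps18 and Rpl14 were named here after their values were seen.

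At P9.5 the changes between genotypes spanned a narrower range. In Prlr-/- against Prlr+/+ islets 0 of 55 members were called, against 0.242% of all probe sets (0.0282% higher and 0.214% lower), and 2 were higher and 1 lower at an unadjusted p under 0.05. The log2 changes ran from -0.23 to 0.40, with all 95% intervals between -0.71 and 0.73. The median was -0.07, beside 0 over all probe sets, and 42 members lay below and 9 above 0. Rps14 was the 1 member whose groups did not overlap, with all Prlr-/- values below, which over all probe sets held for 2.91%, with 3.16% the other way. It was at 10.4, 10.4 and 10.5 in Prlr+/+ and at 10.3, 10.1 and 10.2 in Prlr-/- arrays, and is named here after its values were seen.

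**Figure D1:**
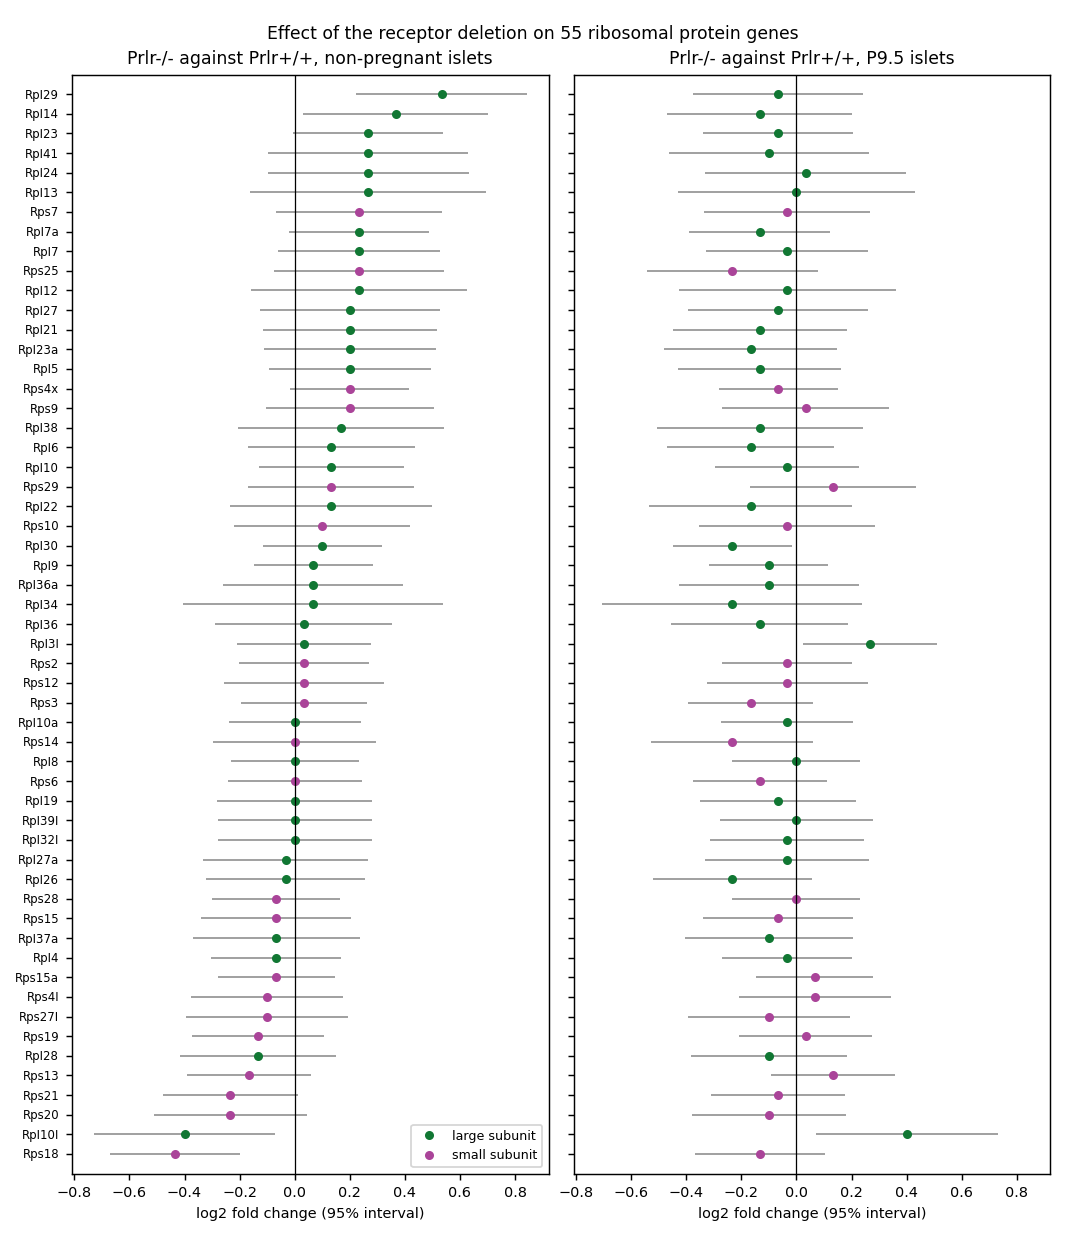
Log2 fold change of Prlr-/- against Prlr+/+ islets for the 55 members, non-pregnant on the left and at P9.5 on the right, with 95% intervals from limma as bars and the subunits in green (large) and purple (small). Genes are in the order of their change in non-pregnant islets, and at P9.5 all changes lie between -0.23 and 0.40.

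Pregnancy moved a minority of the ribosomal protein genes past the test. In Prlr+/+ islets 8 members were higher and 3 lower at P9.5 than in NP islets, 11 of 55, against 21.8% of all probe sets (11.5% higher and 10.3% lower). In Prlr-/- islets 7 were higher and 3 lower, 10 of 55, against 33.4% of all probe sets (15.6% higher and 17.7% lower). The share of members called was 14.5% higher and 5.45% lower in Prlr+/+ and 12.7% higher and 5.45% lower in Prlr-/- islets. In the deposited values it was thus near the background for increases and under it for decreases. Other scalings changed the number of members called lower, as given in the closing section. With a fold change of at least 1.5 as well, 3 members were higher and 0 lower in Prlr+/+ islets (5.73% and 4.21% of all probe sets), and 3 were higher and 1 lower in Prlr-/- islets (7.44% and 7.09%). In Prlr+/+ islets the stages did not overlap for 15 of 55 members that were higher and 3 of 55 that were lower, against 15% and 17.3% of all probe sets. In Prlr-/- islets they did not overlap for 11 of 55 and 5 of 55 members, against 19.4% and 22.4%. By this measure the share of higher members was above the background in Prlr+/+ and near it in Prlr-/- islets. The share of lower members was under the background in both.

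The median change of the members was 0.20 in Prlr+/+ and 0.03 in Prlr-/- islets on the log2 scale, beside -0.07 over all probe sets in both. In Prlr+/+ islets 37 members were above 0 and 15 below, and in Prlr-/- islets 28 and 24. Both medians depended on how the arrays were scaled, as given in the closing section, and the Prlr-/- median was below 0 after quantile normalization and cyclic loess. The Prlr+/+ median was 0.05 without Prlr+/+ NP replicate 3, the array with the lowest value of its group in 45 of 55 members. By subunit, the median was 0.23 (large) and 0.03 (small) in Prlr+/+ islets and 0.00 and 0.07 in Prlr-/- islets. In Prlr+/+ islets 4 of 34 large subunit genes were higher and 2 lower, and 4 of 21 small subunit genes were higher and 1 lower. In Prlr-/- islets these counts were 2 and 2 for the large and 5 and 1 for the small subunit.

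Rpl7, Rps6, Rps27l and Rps15a rose in both genotypes. Rpl7, a large subunit protein that binds RNA, was at 9.5, 9.5 and 9 in Prlr+/+ NP arrays and at 10.3, 10.2 and 10.3 at P9.5. In Prlr-/- arrays it was at 9.4, 9.6 and 9.7 and then at 10.3, 10.2 and 10.2. Every P9.5 value was above every NP value, and the pregnant groups lay within 0.1 of each other while the lowest NP value was that of Prlr+/+ replicate 3. The log2 change was 0.93 in Prlr+/+ (adjusted p = 0.00101 from limma, standard error 0.135) and 0.67 in Prlr-/- islets (adjusted p = 0.00358), the largest rise of a member in Prlr+/+ islets. All 4 probe sets that name Rpl7 alone were called in both genotypes, with log2 changes of 0.93 to 1.00 in Prlr+/+ and 0.63 to 0.73 in Prlr-/- islets.

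Rps6 was at 11.3, 11.3 and 11.1 in Prlr+/+ NP arrays and at 11.9, 11.7 and 12 at P9.5. In Prlr-/- arrays it was at 11.1, 11.2 and 11.4 and at 11.7, 11.7 and 11.8. The stages did not overlap in either genotype, with log2 changes of 0.63 (adjusted p = 0.00269 from limma) and 0.50 (adjusted p = 0.00594). Each of the 8 probe sets of Rps6 was called in both genotypes, from 0.60 to 0.70 in Prlr+/+ and from 0.47 to 0.57 in Prlr-/- islets.

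Rps27l is the paralog of Rps27 and a known target of p53. It was at 7.1, 6.8 and 6.7 in Prlr+/+ NP and at 7.7, 7.3 and 7.4 in Prlr+/+ P9.5 arrays, and at 6.8, 6.7 and 6.8 and then 7.4, 7.2 and 7.5 in Prlr-/- arrays. The log2 change was 0.60 in each genotype (adjusted p = 0.00896 and 0.00613 from limma), and no P9.5 value reached down to an NP value of either genotype. Rps27 itself has no probe set of its own, so the pair could not be compared. Rps15a, a small subunit protein, was at 7, 7.1 and 6.9 in Prlr+/+ NP and at 7.3, 7.4 and 7.5 in Prlr+/+ P9.5 arrays. In Prlr-/- arrays it was at 6.8, 7 and 7 and then at 7.5, 7.5 and 7.4. The stages were again separate, with log2 changes of 0.40 (adjusted p = 0.013 from limma) and 0.53 (adjusted p = 0.00198).

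Rpl29 and Rps28 fell in both genotypes. Rpl29 was at 8.3, 8.6 and 8.1 in Prlr+/+ NP arrays and at 7.9, 7.7 and 8 at P9.5, a log2 change of -0.47 (adjusted p = 0.0358 from limma). In Prlr-/- arrays it was at 8.8, 8.7 and 9.1 and then at 7.8 in all 3, a log2 change of -1.07 with a standard error of 0.142 and an adjusted p of 0.000349 in limma, or 2.09-fold lower, the largest change of any member. The pregnant groups were nearly equal, and the NP groups stood apart, with all Prlr-/- NP values above all Prlr+/+ NP values. The difference between the 2 changes, -0.60, did not pass the test (adjusted p = 0.362 from limma). Rps28, a small subunit protein near the exit of the mRNA, was at 9.3, 9.6 and 9.2 in Prlr+/+ NP and at 9.2, 9.3 and 9.4 in Prlr-/- NP arrays, and at 9 in all 6 pregnant arrays. Its log2 changes were -0.37 (adjusted p = 0.0295) and -0.30 (adjusted p = 0.0481 from limma). Of its 7 probe sets, 5 were called lower in Prlr+/+ and 3 in Prlr-/- islets. In Prlr+/+ islets Rps28 and Rpl29 lost their calls in several alternatives. Among them were a fit of the 2 groups alone and the fits without Prlr+/+ NP replicate 2 (log2 changes of -0.25 and -0.33). The Prlr-/- call of Rps28 was lost in each fit that left out 1 array of the Prlr-/- groups (adjusted p = 0.0563 to 0.141 from limma). It was also lost after median centring (log2 change -0.13, adjusted p = 0.394 from limma). The same held with the replicate number as a block, with the mean of its probe sets and with rounding noise.

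**Figure D2:**
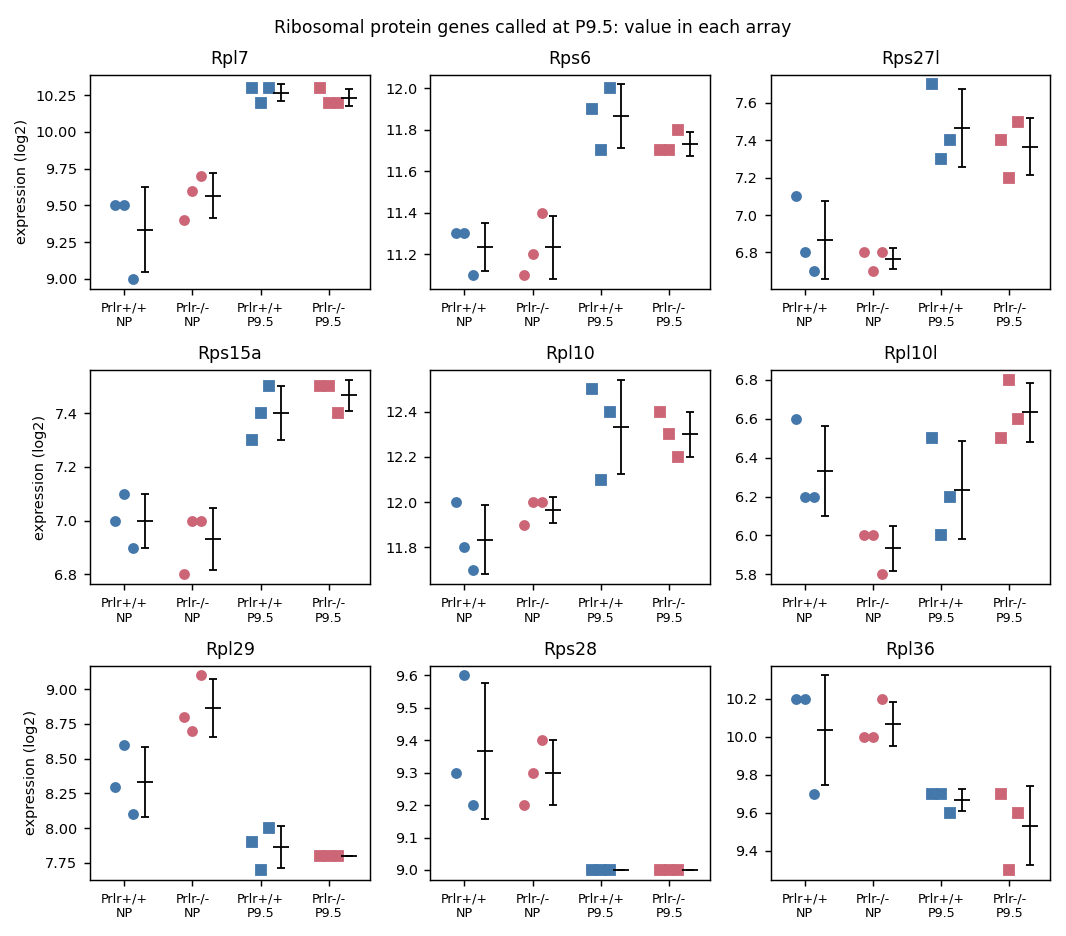
Log2 expression of 9 members called in a pregnancy comparison, with 1 point per array in the order of replicates 1 to 3, circles for NP and squares for P9.5, blue for Prlr+/+ and red for Prlr-/-. The black bar beside each group is its mean with the SD (n = 3), and each panel has its own scale, which does not start at 0. Rpl7, Rps6, Rps27l and Rps15a are higher in all 6 P9.5 arrays than in all 6 NP arrays, and Rpl29 and Rps28 are lower.

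Another 5 members were called in Prlr+/+ pregnancy and not in Prlr-/- pregnancy. Rpl10 was at 12, 11.8 and 11.7 in Prlr+/+ NP and at 12.5, 12.1 and 12.4 in Prlr+/+ P9.5 arrays, a log2 change of 0.50 (adjusted p = 0.0124 from limma). In Prlr-/- islets it moved from 11.9, 12 and 12 to 12.4, 12.3 and 12.2, a log2 change of 0.33 with an adjusted p of 0.0508 in limma, and 4 of its 6 probe sets were called there, against all 6 in Prlr+/+ islets. The values of Rpl10 separated the stages in both genotypes. Its Prlr+/+ call was lost after cyclic loess (log2 change 0.29, adjusted p = 0.0979 from limma), in a fit of the 2 groups alone (adjusted p = 0.0519) and without Prlr+/+ P9.5 replicate 1 (0.0552), and a Prlr-/- call was gained in 7 alternatives. Rpl30, a large subunit protein, was at 7.5, 7.6 and 7.6 in Prlr+/+ NP and at 8, 8.1 and 7.9 in Prlr+/+ P9.5 arrays, a log2 change of 0.43 (adjusted p = 0.00965 from limma), and changed by 0.10 in Prlr-/- islets (adjusted p = 0.454).

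Rpl5, which carries 5S ribosomal RNA into the large subunit together with Rpl11, was at 10.9, 10.6 and 10.4 in Prlr+/+ NP and at 11.1, 11 and 11.1 in Prlr+/+ P9.5 arrays, a log2 change of 0.43 (adjusted p = 0.0397 from limma). Rps4x, an X-linked small subunit protein, rose by 0.33 (adjusted p = 0.0322), from 10.1, 10 and 9.8 to 10.3 in all 3 arrays, and 1 of its 5 probe sets was called. In both genes Prlr+/+ NP replicate 3 was the lowest array, and without it neither was called (adjusted p = 0.139 and 0.117 from limma). In all, Rpl5 lost its call in 9 alternatives and Rps4x in 10. Rpl3l was lower by 0.37 (adjusted p = 0.036), at 4.7, 4.8 and 4.7 and then 4.4, 4.5 and 4.2, which lies in the range of the background. This call was lost in each of the 3 other scalings (adjusted p = 0.095 to 0.137 from limma), in a fit of the 2 groups alone (0.062) and in 5 of the 6 fits that left out an array of these groups, all but that without Prlr+/+ P9.5 replicate 2.

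In Prlr-/- pregnancy 4 members were called that were not called in Prlr+/+ pregnancy. Rpl10l was at 6, 6 and 5.8 in Prlr-/- NP and at 6.5, 6.8 and 6.6 in Prlr-/- P9.5 arrays, a log2 change of 0.70 with a standard error of 0.151 and an adjusted p of 0.00496 in limma. In Prlr+/+ arrays it was at 6.6, 6.2 and 6.2 and then at 6.5, 6 and 6.2, a log2 change of -0.10, so that the stages overlapped there. Rpl36, a large subunit protein, fell from 10, 10 and 10.2 to 9.7, 9.3 and 9.6, a log2 change of -0.53 (adjusted p = 0.0169 from limma). In Prlr+/+ islets it was at 10.2, 10.2 and 9.7 and then at 9.7, 9.7 and 9.6, a log2 change of -0.37 (adjusted p = 0.0957), with replicate 3 of the NP group at the level of the pregnant arrays. All 9 probe sets of Rpl36 were called lower in Prlr-/- islets and 2 of them in Prlr+/+ islets. The Prlr-/- call of Rpl36 was lost after median centring (log2 change -0.37, adjusted p = 0.103 from limma), without Prlr-/- NP replicate 3 (adjusted p = 0.059) and without Prlr-/- P9.5 replicate 2 (adjusted p = 0.0564). In Prlr+/+ islets it was called lower after quantile normalization (adjusted p = 0.0143 from limma), after cyclic loess (0.0134) and without Prlr+/+ NP replicate 3 (0.0199). Rps4l, whose symbol marks it as a relative of Rps4x, and Rps20, which are outside the rule for named genes and complete the count, were higher by 0.40 and 0.37 (adjusted p = 0.0302 and 0.0449 from limma).

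The difference between the genotypes in their response to pregnancy was tested as the interaction, and it called 0 of 55 members, against 0.0788% of all probe sets. At an unadjusted p under 0.05, 1 member had a larger change in Prlr-/- islets (Rpl10l, 0.80, 95% interval 0.33 to 1.27, adjusted p = 0.268 from limma) and 5 a lower one (Rpl29, Rpl14, Rps25, Rpl7a and Rpl30). Rpl14, Rps25 and Rpl7a were named after their values were seen. A call in 1 genotype and not in the other is therefore not a shown difference. The changes of all members ran from -0.60 to 0.80 in the interaction, with a median of -0.17 beside 0 over all probe sets and a median of -0.25 for the large and 0.00 for the small subunit. Without Prlr+/+ NP replicate 3 the median over the members was -0.07.

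The pregnancy changes of the genotypes, which share no array, can be set side by side. Of the 55 members, 33 changed in the same direction in both, 17 in opposite directions and 5 had a change of 0 in one or both. The 6 members called in both genotypes had the same sign in both. Across the members the changes had a Pearson r of 0.658 and a Spearman rho of 0.566 (n = 55 genes measured on the same arrays, which are not independent), and across all genes the Pearson r was 0.768. The change in Prlr+/+ islets was above that in Prlr-/- islets in 37 of 55 members.

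**Figure D3:**
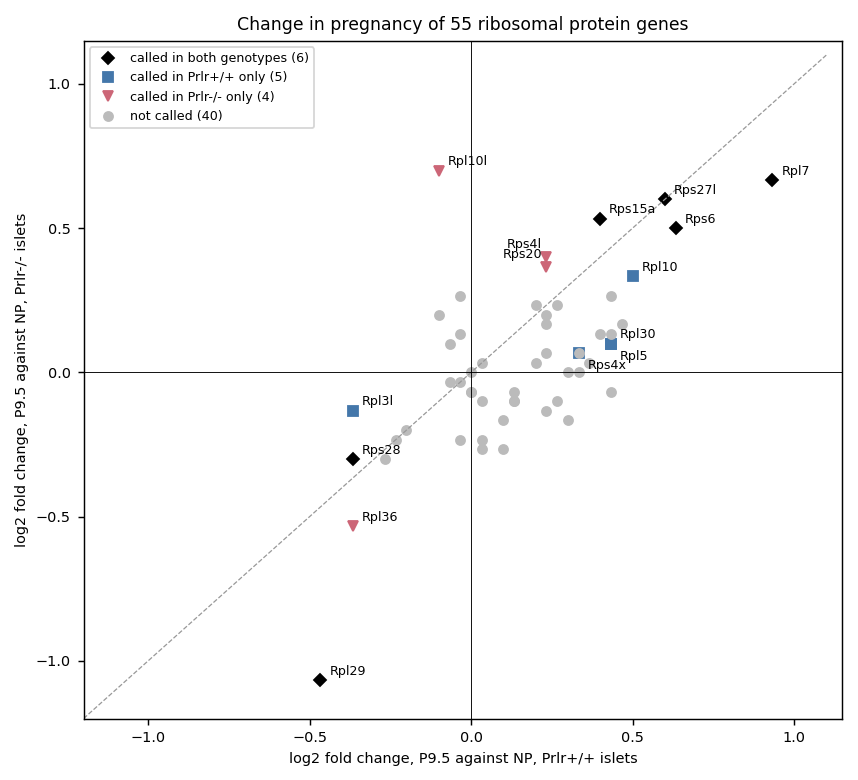
Log2 change from NP to P9.5 of the 55 members in Prlr+/+ islets (horizontal) and Prlr-/- islets (vertical), with 1 point per gene and the dashed line marking equal change. Black diamonds are the 6 genes called in both genotypes, blue squares the 5 called in Prlr+/+ only, red triangles the 4 called in Prlr-/- only and grey circles the 40 called in neither. Rpl29 lies below the line and Rpl10l above it, and neither difference passed the test of the interaction.

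In the NP groups most members shared the same lowest or highest array. At P9.5 no array was alone the lowest or highest of its group in more than 26 of 55 members. How far this set the precision of the median over the members was not tested. Their mean over the 55 genes was 9.26, 9.16 and 8.93 in the Prlr+/+ NP arrays and 9.08, 9.17 and 9.28 in the Prlr-/- NP arrays. At P9.5 it was 9.30, 9.22 and 9.29 in Prlr+/+ and 9.24, 9.18 and 9.21 in Prlr-/- arrays. The groups overlapped, and the NP arrays were more spread out than the P9.5 arrays. In 45 of 55 members Prlr+/+ NP replicate 3 alone was the lowest of its group, in 33 Prlr-/- NP replicate 1 was, and in 36 Prlr-/- NP replicate 3 alone was the highest. The median SD within groups was 0.166 for members and 0.141 for all genes. In Prlr+/+ NP replicate 3 the mean of the endocrine markers was 11.65, between the 11.55 and 11.68 of the other arrays of its group. Its acinar mean of 10.52 also lay between theirs, 10.3 and 10.8. Among the lists below, this array had the lowest mean of all arrays for translation factors (9.01) and other TOP mRNAs (9.25). The same held for the mitochondrial ribosomal proteins (6.86) and the ribosomal proteins outside the symbol rule (9.23). It was not the lowest for the mTOR genes (7.72) or the list of RNA polymerase I and Myc (7.16). Changes of these lists without this array are not given here.

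**Figure D4:**
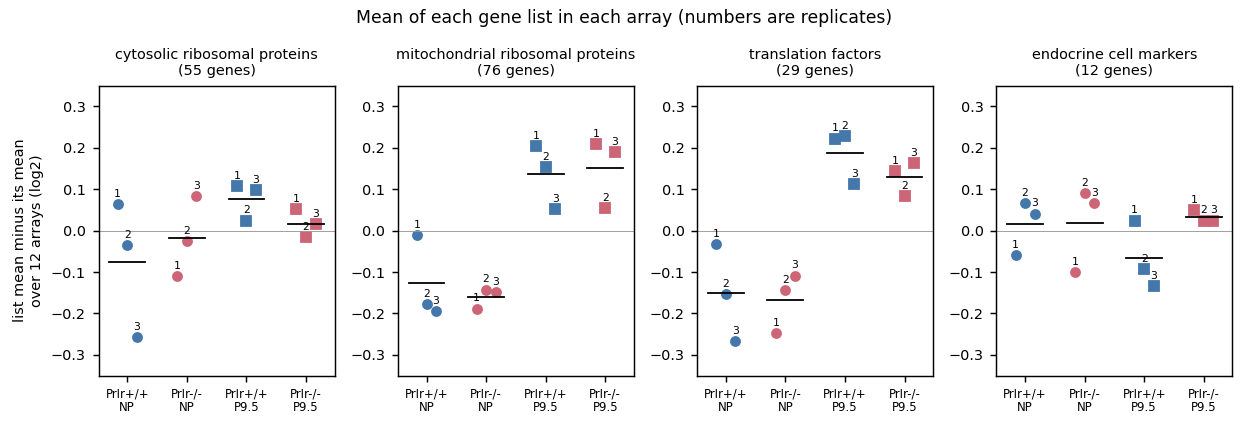
Mean log2 value of 4 gene lists in each array, given as the difference from the mean of the list over the 12 arrays, with replicate numbers beside the points and a black line for the group mean. Circles are NP and squares P9.5, blue is Prlr+/+ and red Prlr-/-. The NP and P9.5 arrays overlap for the cytosolic ribosomal proteins and are separate for the mitochondrial ribosomal proteins and the translation factors.

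Some ribosomal proteins have symbols that fall outside the rule. Of 11 such genes 7 were measured, with median log2 changes of 0.00 in Prlr+/+ and -0.17 in Prlr-/- pregnancy, and 2 of them, Rps3a1, the mouse gene for small subunit protein eS1, and Rpl7l1, a nucleolar relative of Rpl7, were higher in both genotypes. Rps3a1 was at 10.2, 10.2 and 10 in Prlr+/+ NP and at 10.8, 10.7 and 11 in Prlr+/+ P9.5 arrays, a log2 change of 0.70 (adjusted p = 0.00279 from limma), and changed by 0.47 in Prlr-/- islets (adjusted p = 0.0144). The stalk proteins Rplp0, Rplp1 and Rplp2, which recruit translation factors, and Fau and Rpsa were not called. In the list of paralog pairs 9 of 14 genes were measured. The relatives Rpl7 and Rpl7l1 rose in both genotypes, Rpl22 changed by 0.03 and -0.27 with adjusted p of 0.897 and 0.238 from limma, and Rpl36a and Rpl39l were not called. Of 4 listed X-linked members 3 were measured, Rpl10, Rps4x and Rpl36a. In Prlr+/+ P9.5 replicate 2, the array with little Xist, Rpl10 was at 12.1, the lowest of its group, Rps4x at 10.3 as in the rest of the group, and Rpl36a at 9.8, the highest.

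Factors that work with the ribosome were called more often than the ribosomal proteins were, which is given as a count and was not tested as a difference. Of 29 measured elongation and initiation factors (34 listed), 12 were higher (41.4%) and 0 lower in Prlr+/+ pregnancy. In Prlr-/- pregnancy 13 were higher (44.8%) and 1, Eif3m, lower (3.45%). The shares of all probe sets were 11.5% higher and 10.3% lower in Prlr+/+ and 15.6% and 17.7% in Prlr-/- pregnancy. Median log2 changes of the factors were 0.37 in Prlr+/+ and 0.30 in Prlr-/- pregnancy. Eif2s2, the beta subunit of the factor that brings in the initiator tRNA, rose by 1.03 and 0.80 (adjusted p = 0.000677 and 0.00129 from limma). Eif4e, which binds the mRNA cap, rose by 0.77 and 0.87 (adjusted p = 0.00253 and 0.000778), from 8.7 to 9.1 in the 3 Prlr+/+ NP arrays to 9.5 to 9.8 in the 3 Prlr+/+ P9.5 arrays. Eif1a rose by 0.87 and 0.77, and Eif3e by 0.87 and 0.47. Of 12 other measured genes with TOP mRNAs (15 listed), 3 were higher (25%) and 0 lower in each genotype. These 12 genes are in part also in the list of factors. Among those higher in both genotypes was Npm1, a nucleolar chaperone, with 0.77 and 0.63. The elongation factor Eef1a1 rose by 0.40 in Prlr+/+ islets and had a change of 0.17 in Prlr-/- islets, with an adjusted p of 0.21 from limma.

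The mitochondrial ribosome, a separate ribosome that translates the mitochondrial genome and whose proteins are encoded in the nucleus, gave the larger counts. Of 76 measured genes with Mrpl or Mrps symbols 24 were higher and 2 lower (Mrps2 and Mrps16) in Prlr+/+ pregnancy, and 35 were higher and 0 lower in Prlr-/- pregnancy, or 31.6% and 46.1% higher against 11.5% and 15.6% of all probe sets. Their median log2 changes were 0.28 and 0.33. Mrpl42 rose the most, from 6.1, 6.4 and 6 to 7.6, 7.6 and 7.3 in Prlr+/+ arrays (log2 change 1.33, adjusted p = 0.00075 from limma) and from 5.8, 5.8 and 6.1 to 7.5, 7 and 7.7 in Prlr-/- arrays (1.5, adjusted p = 0.00019). Between the genotypes 0 of the mitochondrial members were called in either state.

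Genes that act upstream of ribosome production differed by list. Of 21 measured genes of the mTOR pathway and of TOP mRNA regulation (22 listed), 5 were higher and 5 lower in Prlr+/+ pregnancy (23.8% each). In Prlr-/- pregnancy 5 were higher and 3 lower (23.8% and 14.3%). Of all probe sets, 11.5% were higher and 10.3% lower in Prlr+/+ and 15.6% and 17.7% in Prlr-/- pregnancy. Rheb, the small GTPase that activates mTOR, rose by 0.77 and 0.87 and Pdcd4, an inhibitor of translation that S6 kinase marks for breakdown, by 0.73 in each genotype. Larp1, which binds TOP mRNAs, fell by 0.57 in Prlr+/+ and by 0.37 in Prlr-/- islets (adjusted p = 0.0058 and 0.0313 from limma), and Castor1, an arginine sensor of the pathway, fell by 0.47 in each. Another list held genes of RNA polymerase I, which transcribes ribosomal RNA, together with Myc, Mycn, Max, Mxd4, Mxi1 and Gtf3a. Of its 17 genes 9, Max among them, were higher (52.9%) and 0 lower in Prlr+/+ pregnancy. In Prlr-/- pregnancy 6 were higher (35.3%) and 2, Taf1c and Ubtf, lower (11.8%). Taf1a and Rrn3, factors that start this transcription, rose in both. Myc was the 1 gene of these lists called between the genotypes, and was at 7.2, 7.5 and 7.9 in Prlr+/+ and at 6.1, 5.9 and 6 in Prlr-/- P9.5 arrays.

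**Figure D5:**
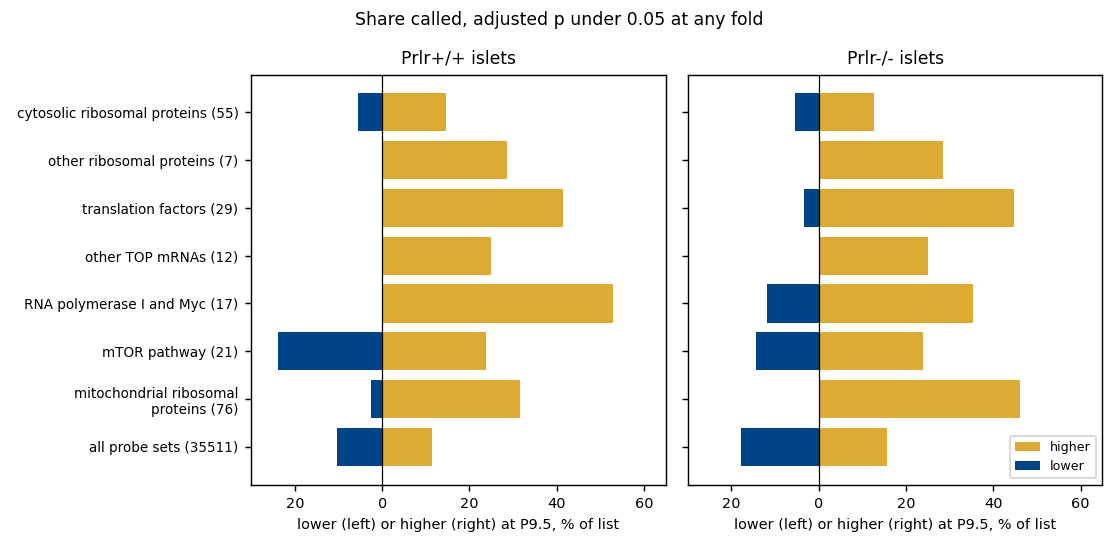
Share of each gene list called higher (yellow, to the right) or lower (blue, to the left) at P9.5 than in NP islets, in percent of the genes measured (number in parentheses), for Prlr+/+ islets on the left and Prlr-/- islets on the right. A call is an adjusted p under 0.05 at any fold in limma, and the lowest bar is the share of all probe sets. The cytosolic ribosomal proteins have 14.5% and 12.7% higher, and the mitochondrial ribosomal proteins 31.6% and 46.1%.

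Some markers of endocrine, exocrine and other cells were called in pregnancy as well. Of the 12 endocrine markers G6pc2 was higher (8.33%) and Nkx6-1, Mafa and Sst were lower (25%) in Prlr+/+ pregnancy. In Prlr-/- pregnancy Pyy and Slc2a2 were higher (16.7%) and 0 lower. Of the 13 measured acinar markers 8 were lower (61.5%) and 1, Bhlha15, higher (7.69%) in Prlr-/- pregnancy, with a median log2 change of -1.17. In Prlr+/+ pregnancy 0 acinar markers were lower and 1 was higher (7.69%), with a median of -0.53. Of 10 endothelial markers 3 were lower in Prlr+/+ and 3 were higher in Prlr-/- pregnancy (30% each). Of 8 stromal markers 2 were lower in Prlr+/+ pregnancy (25%), and of 5 duct markers 1 was lower in each genotype (20%). Of 10 immune markers 1 was higher and 1 lower in Prlr+/+ (10% each) and 1 higher and 3 lower in Prlr-/- pregnancy (10% and 30%). Beside these, 11.5% of all probe sets were higher and 10.3% lower in Prlr+/+ and 15.6% and 17.7% in Prlr-/- pregnancy. The part of these cells in the values of the ribosomal protein genes was not tested. In RNA of whole islets, fewer cells of a type and less RNA per cell cannot be told apart. Ribosomal protein genes also have many processed pseudogenes in the mouse genome, and which copies add to a probe set cannot be told from the annotation. For the 36 members with several probe sets, 7 had probe sets with changes of both signs in each pregnancy comparison, and 0 had calls in both directions.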

How the data were processed

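The authors hybridised islet RNA to Affymetrix MoGene_1.0_ST arrays and preprocessed the raw files by robust multichip analysis in aroma.affymetrix, which corrects background, normalizes probes by quantiles and gives 1 value per probe set. The deposited values are log2 expression, rounded to 0.1, for 35511 probe sets in 12 arrays. Raw files were not used here, and arrays have no read depth, so the number of arrays limits the precision. The array annotation gave 1 symbol for 21789 probe sets, several for 1621 and none for 12101.

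A model with 4 group means was fitted to all probe sets with limma 3.58.1 in R 4.3.3 (lmFit, eBayes), and p-values were adjusted by Benjamini and Hochberg over all of them. The script was tested on simulated data. The p-values measure the spread between these arrays, which the labels describe as biological replicates. The replicate numbers were not used as pairs, since deviations of arrays with the same number correlated at over 0.1 in 7 of 18 pairs. The members and lists were chosen with earlier results of these data known. Named members were those past both thresholds, up to 5 per direction with the largest called change per comparison, the 3 brightest and 3 dimmest, and the paralog, X-linked and 5S lists. From other lists at most 4 called genes were named. Promoters came from RefSeq (GRCm38.p6). The alternatives were a fit of the 2 groups alone, a replicate block, leaving out each array or the dimmest 40% of probe sets, other scalings, a trend with a robust prior, array weights, the mean of all probe sets of a gene, members with 1 probe set, and a fold minimum. A further 2 alternatives, added rounding noise of up to 0.05 and leaving out repeats of identical probe sets, were chosen after seeing the data.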

Additional observations from a re-analysis of the deposited data

How the results depend on the processing

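The counts of 0 members called between genotypes and in the interaction were 0 under every alternative run. In Prlr+/+ pregnancy the count of 11 (8 higher, 3 lower) was 5 (5 and 0) in a fit of the 2 groups alone, 5 among the 19 members with 1 probe set and 3 with a fold of at least 1.5. It ran from 5 to 16 when 1 array was left out, with 16 when Prlr+/+ NP replicate 1 was omitted, 6 when replicate 2 of that group was, and 5 or 7 when replicate 1 or replicate 3 of Prlr+/+ P9.5 was. In Prlr-/- pregnancy the count of 10 (7 higher, 3 lower) was 5 among members with 1 probe set and 4 with a fold of at least 1.5, and it ran from 6 (without Prlr-/- P9.5 replicate 2) to 8 when 1 array was left out. The split of higher and lower members moved with the scaling. It was 11 and 0 (Prlr+/+) and 13 and 1 (Prlr-/-) after median centring, 6 and 6 and 6 and 7 after quantile normalization, and 5 and 5 and 5 and 10 after cyclic loess. After median centring the median change of all probe sets in Prlr-/- pregnancy was 0.10, in place of -0.07. The cause of the moves of the split was not tested. These counts stand without the share of all probe sets called in the same fit. They do not show whether the members moved or all probe sets did. The median change over the members became -0.0667 (genotype, NP), 0.20 (Prlr-/- pregnancy) and -0.0667 (interaction) after median centring, 0.0472 (Prlr+/+) and -0.0792 (Prlr-/-) after quantile normalization, and 0.0428 (Prlr+/+) and -0.157 (Prlr-/-) after cyclic loess. Over all probe sets the medians of the same comparisons were -0.10, 0.10 and 0.10 after median centring. They were -0.0167 and 0.00833 after quantile normalization, and -0.0114 and -0.00583 after cyclic loess. The median over the members was -0.0333 in the interaction when only those with 1 probe set were kept. Leaving out 1 array gave medians of 0.05 to 0.27 in Prlr+/+ pregnancy, -0.05 to 0.07 in Prlr-/- pregnancy, -0.25 to -0.0667 in the interaction, -0.03 to 0.12 between genotypes in NP islets and -0.08 to -0.03 at P9.5, and the values 0.05, -0.07 and -0.03 for Prlr+/+ pregnancy, the interaction and NP islets were those without Prlr+/+ NP replicate 3.

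With the replicate number as a block, 8 members were called in each genotype in pregnancy, 6 higher and 2 lower, and 0 in the genotype comparisons and the interaction. Arrays with the same number are not known to share anything, and 1 of 12 arrays correlated best with its own number throughout.

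Of the values of single named members, 1583 kept their side of the threshold, 58 lost a call and 14 gained one. Of those called in the main fit, 0 reversed their direction. For values not called in the main fit, the direction was not compared. Rpl7, Rps6 and Rps27l were called in both genotypes under every alternative at any fold. Rps15a lost its Prlr+/+ call without Prlr+/+ NP replicate 3 (adjusted p = 0.0504 from limma).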
